A study of Mus musculus with 3 samples.

Results

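The genes described here encode proteins that hepatocytes secrete into blood plasma, 39 genes chosen by their membership of 4 functional groups: 9 carriers and transport proteins, 13 proteins of coagulation and fibrinolysis, 6 of complement and 11 protease inhibitors. RBFOX2 crosslinking was measured by eiCLIP, a form of individual-nucleotide CLIP in which ultraviolet light joins the protein to the RNA it touches and the start of each cDNA marks the crosslinked position. The cells were primary hepatocytes of C57BL6/J mice on control diet, plated overnight and irradiated at 150 mJ/cm2. RNA bound to the protein was precipitated with the RBM9 antibody, and the labels give 3 livers and 3 pellets for each of 3 libraries. The study's methods describe each culture as cells of more than 1 mouse with another number of animals, and whether libraries share animals is not settled by these sources. There is a single group, without a knockout, a second diet or a second treatment to compare it with. The authors' list is named as the sum of the 3 libraries, so that no spread between libraries can be given and no test between conditions was made. A cluster was given to a gene when it lay on the gene's strand with its midpoint inside the GENCODE M21 span, on GRCm38. By this rule the 39 genes held 487 of the 87021 clusters (0.560%) and 22208 of the 2850863 cDNA starts in clusters (0.779%), called counts from here on. The list has no header, and its whole-number values were taken to be these counts.

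Hepatocytes are the main source of plasma proteins. Albumin and the other carriers hold water in the vessels and move iron, copper, haem, vitamins and hormones, the coagulation and complement proteins circulate as inactive precursors that are cut in cascades, and the inhibitors restrain the proteases of these cascades. RBFOX2 is a splicing regulator that binds the RNA motif GCAUG, written GCATG here, and is best known for contacts in the introns that flank alternative exons. Of 6 hepatocyte markers, 5 held clusters, led by Cps1 (carbamoyl phosphate synthetase, an enzyme of the urea cycle) with 1540 counts. Asgr1 held none. None of 6 cholangiocyte markers held a cluster, and 2 of 6 Kupffer cell or macrophage, 1 of 6 endothelial, 1 of 6 stellate cell or fibroblast and 2 of 6 lymphocyte markers did. Over all protein-coding genes 41.7% held a cluster. The highest sum among the markers of cells other than hepatocytes was 150 counts for Reln, a stellate cell marker. The part of other liver cells in the counts below was not tested.

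At least 1 cluster was found in 33 of the 39 genes, against a background of 41.7% over 22028 protein-coding genes. All 9 carriers and all 6 complement genes held clusters, as did 9 of 13 coagulation and fibrinolysis genes and 9 of 11 protease inhibitors. The genes without one were F5, F10 and F11 (coagulation factors V, X and XI), Pros1 (protein S, a cofactor of the anticoagulant protein C), Serpina1a (an alpha-1-antitrypsin) and Serpind1 (heparin cofactor II). The list starts at 10 counts per cluster, so an absent cluster says only that no site reached that count. The genes with a cluster held a median of 6 clusters and 139 counts per gene, against 3 clusters and 63 counts over the 9191 protein-coding genes with a cluster. Of the 487 clusters, 118 (24.2%) had at least 39 counts, the level reached by 10.2% of all clusters. The amount of each RNA in the cells and the size-matched input were not analysed here, so more RNA and more RBFOX2 per RNA cannot be told apart in any count.

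**Figure D1:**
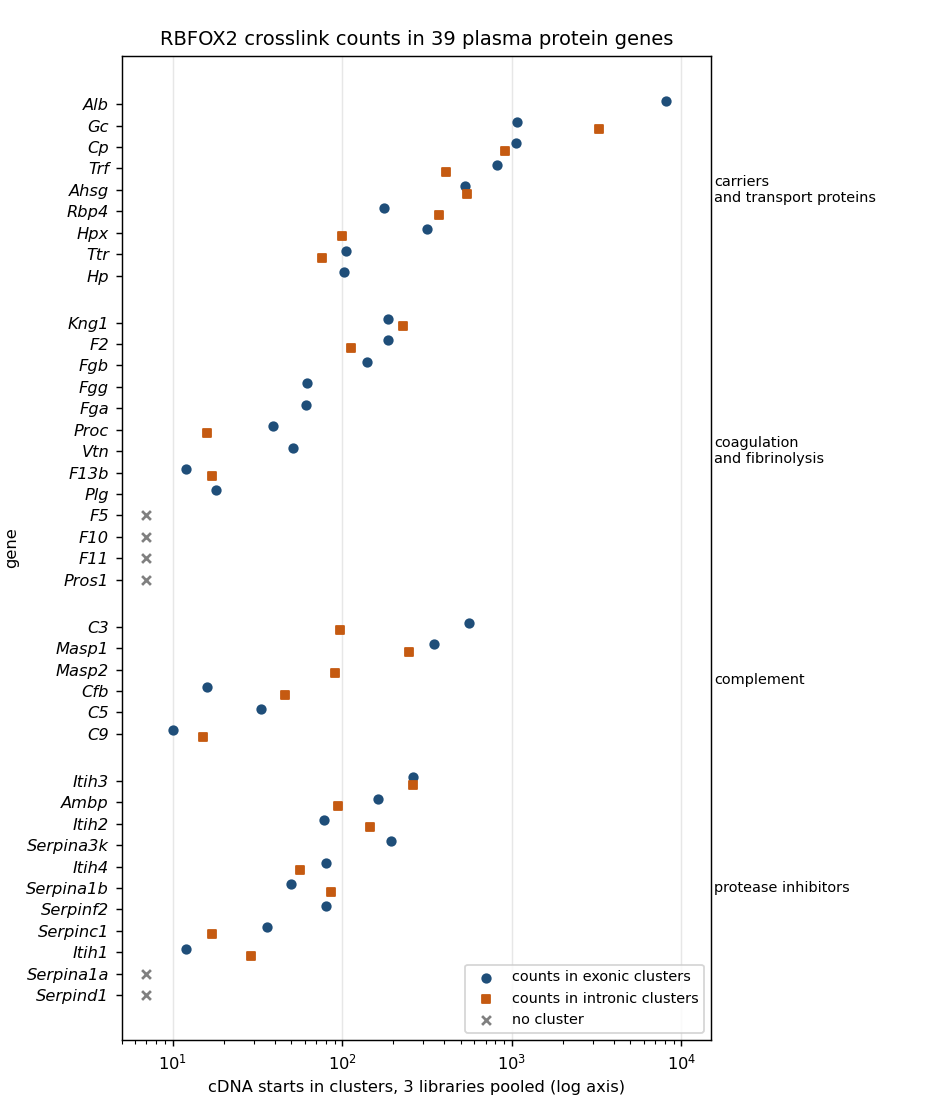
Counts (cDNA starts in clusters, 3 libraries pooled, log axis) in exonic clusters (circles) and intronic clusters (squares) of each of the 39 genes, by group; grey crosses mark genes with no cluster and are placed outside the scale of counts. Alb stands at 8110 exonic counts with no intronic cluster, and Gc at 3279 intronic and 1077 exonic counts.

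The counts were concentrated in the carriers. These held 301 clusters and 17976 counts, 80.9% of the counts of all 39 genes, against 71 clusters and 1461 counts in complement, 67 clusters and 1642 counts in the inhibitors, and 48 clusters and 1129 counts in coagulation and fibrinolysis. Alb alone held 36.5% of the counts and Gc 19.6%. The other carriers lay between 102 counts in Hp and 1970 in Cp, while no gene of the other 3 groups exceeded the 656 counts of C3. Compared per length, 31 of the 33 genes with a cluster exceeded the median exonic density of protein-coding genes with a cluster (4.23 counts per kb of exon), and 12 of them exceeded its 95th percentile of 70.0 counts per kb. The intronic density exceeded its own median of 1.29 counts per kb of intron in 18 genes.

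The exon and intron split differed from that of other genes. Of the 487 clusters 253 were intronic, 52.0% with a Wilson 95% interval of 47.5 to 56.4%, against 69.5% of the 71078 clusters in other protein-coding genes. Intervals here and below cover counting error only. Coding sequence held 37.8% (33.6 to 42.2%) against 14.4%, and 3′ UTRs held 8.62% (6.44 to 11.5%) against 13.8%. By group, the intronic share was 59.8% (54.2 to 65.2%) in carriers, 42.3% (31.5 to 53.8%) in complement, 41.8% (30.7 to 53.7%) in the inhibitors and 31.3% (19.9 to 45.3%) in coagulation and fibrinolysis. The last 3 intervals overlap one another. The carriers' higher share came with a single gene: Gc held 96 of the 253 intronic clusters (37.9%), and without it the share over the remaining 38 genes was 42.0% (37.1 to 47.0%).

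**Figure D2:**
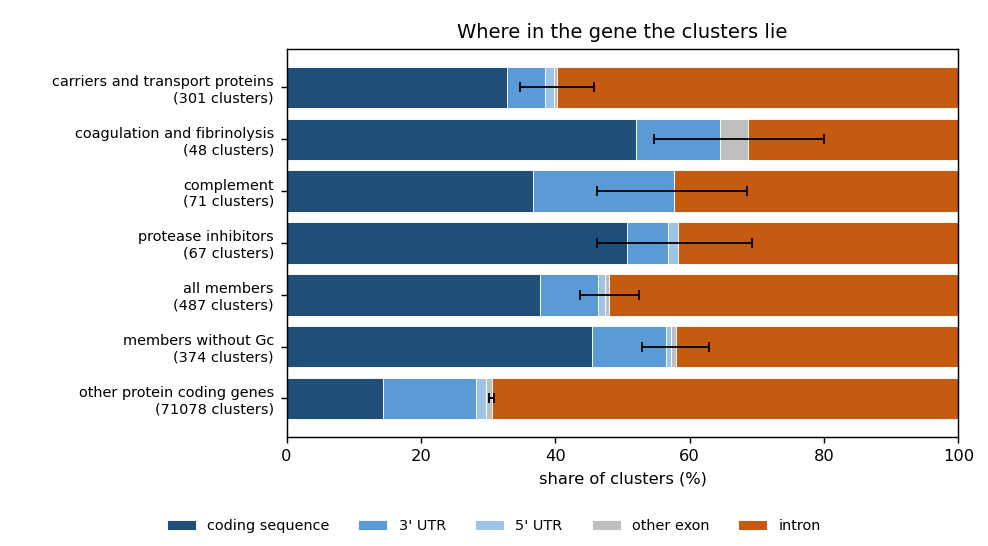
Share of clusters (%) in coding sequence, 3′ UTR, 5′ UTR, other exons and introns, for each group of genes, all 39 genes, the same without Gc, and all other protein-coding genes; black bars are the Wilson 95% interval of the intronic share, drawn at its left edge. The intronic part is 52.0% for the 39 genes, 42.0% without Gc and 69.5% for other protein-coding genes.

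Counted by gene, 9 of the 33 genes with a cluster had most of their clusters in introns, against 65.8% of protein-coding genes with a cluster. A further 10 of 33 had no intronic cluster, against 13.9%. These 10 were Alb, Hp, Fga, Fgb, Fgg, Plg, Vtn, C5, Serpina3k and Serpinf2, and Masp2 alone had no exonic one. Weak clusters were more often intronic than strong ones. Among clusters of 10 to 16 counts 62.2% (54.6 to 69.3%) were intronic, among those of 17 to 38 counts 52.2% (45.4 to 58.9%), and among those of 39 counts or more 37.3% (29.1 to 46.3%). The same order held in other protein-coding genes, at 72.7%, 68.9% and 57.0%. Weighted by counts, the intronic share of the 39 genes was 32.6%, and that of other genes 65.5%.

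Introns are longer than exons, so the same split was also taken per length. Counts per kb of exon exceeded counts per kb of intron in 31 of the 33 genes, against 57.1% of 9158 other protein-coding genes with a cluster. The exceptions were both complement genes, Cfb (complement factor B, the protease of the alternative pathway) and Masp2 (the protease that starts the lectin pathway). Exonic and intronic density went weakly together across the 33 genes (Spearman's rho 0.44 over genes, which share the pooled libraries and are not replicates), and over 9191 protein-coding genes rho was 0.28. Gc and Ahsg were high on both scales, at 584 and 286 counts per kb of exon and 85.1 and 86.3 counts per kb of intron. Alb was highest in exons, at 3463 counts per kb, and had none in introns.

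**Figure D3:**
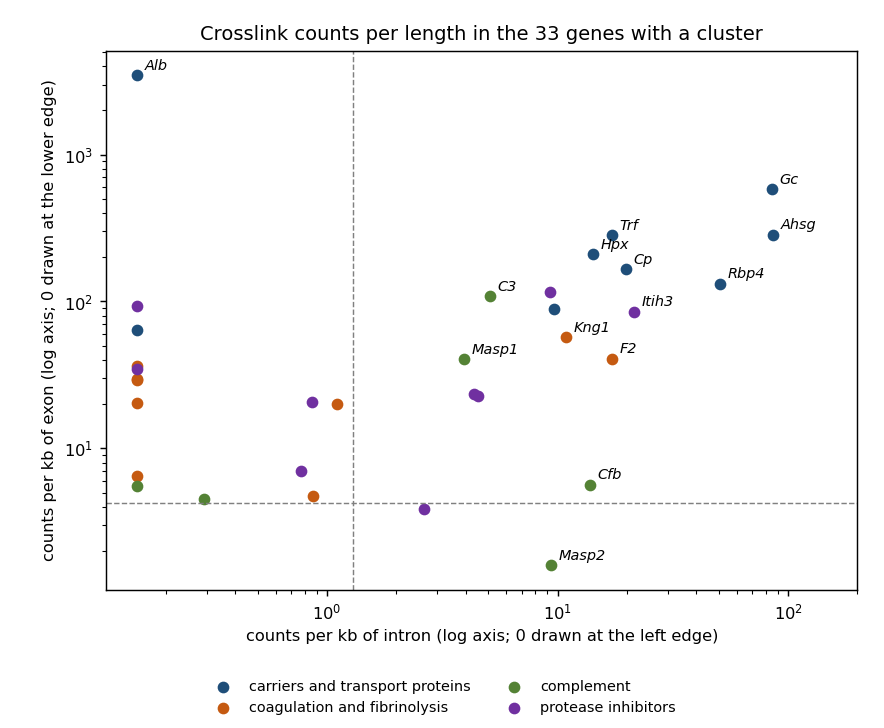
Counts per kb of exon against counts per kb of intron (both log axes) for the 33 genes with a cluster, coloured by group, with a gene at 0 drawn at the edge; dashed lines are the medians over protein-coding genes with a cluster, 4.23 per kb of exon and 1.29 per kb of intron. Alb lies at the upper left with 3463 counts per kb of exon and none in introns, Gc and Ahsg at the far right, and Masp2 at the lower edge.

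Alb encodes albumin, the most abundant plasma protein. It lies on chr5:90460897-90476602 on the plus strand and held 22 clusters with 8110 counts (exact Poisson 95% interval 7934 to 8288), which ranked 16 among all annotated genes. By cluster midpoint, every one of its 15 exons held a cluster, and none of its 14 introns did. Some clusters extend past an exon edge: that of 501 counts ends at 90475347, while exon 14 ends at 90475336. The clusters ranged from 13 to 1558 counts with a median of 302, and the 10 highest clusters of all 39 genes were all in Alb. The highest, with 1558 counts, lay in exon 4 (chr5:90463992-90464191) and spanned 200 of that exon's 212 nt. The next were 1322 counts in exon 12 (chr5:90472491-90472658), 904 in exon 6, 574 in exon 8 and 532 in exon 1. Then came 501 counts in exon 14, which holds the end of the reading frame, while exon 9 had 402, the final exon 15 had 354, exon 2 had 342 and the larger of 2 clusters in exon 5 had 312. Exon 13 stood lowest, with 1 cluster of 49 counts. Per length, exon 6 was highest with 9224 counts per kb, and exon 13 lowest with 368, so that coverage of the albumin exons was complete but uneven.

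The albumin transcript is rich in the RBFOX motif. Alb-201 holds 7 GCATG in its 2034 nt, or 3.44 per kb, and all 7 lay within 50 nt of a cluster along the spliced transcript. With 50 nt on each side the Alb clusters cover the whole transcript, so a site anywhere in it would have met this. All 7 sites are shown, some inside a cluster and some outside it, with GCATG in capitals, 5′ to 3′ on the plus strand of GRCm38. The stretches around the sites of exon 5 and of the end of exon 6 run over an exon junction, and 2 sites fall in exon 12.
Alb exon 12, chr5:90472481-90472510, first base of the motif 2 nt after the 5′ end of the 1322-count cluster: tgtgtgtctgctGCATGagaagaccccagt
Alb exon 12, chr5:90472505-90472534, inside the same cluster: cccagtgagtgaGCATGttaccaagtgctg
Alb exons 4 and 5, chr5:90464190-90464195 joined to chr5:90464853-90464876, between the clusters of 1558 and 312 counts: gggacactatttGCATGaagttgccagaag
Alb exons 6 and 7, chr5:90465955-90465971 joined to chr5:90467344-90467356, between the clusters of 904 and 179 counts: agagcttttaaaGCATGggcagtagctcgt
Alb exon 8, chr5:90468579-90468608, inside the 574-count cluster: tagtgaggtggaGCATGacaccatgcctgc
Alb exon 9, chr5:90469605-90469634, just past the 402-count cluster: gccaatcctcccGCATGctacggcacagtg
Alb exon 3, chr5:90462736-90462765, inside the 285-count cluster: ctcatacgatgaGCATGccaaattagtgca
Only the sites of exon 12, in its first copy, and of exon 5 are preceded by T, which gives the longer form TGCATG. Of the 22 windows around Alb clusters (the cluster with 50 nt on each side, along the spliced transcript), 12 held GCATG, 54.5% with a Wilson interval of 34.7 to 73.1%. Windows of the same length placed anywhere in the same class of the transcript held it at 48.8%, within that interval. The clusters of exons 1, 2, 14 and 15, with 532, 342, 501 and 354 counts, had no GCATG in their windows.

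Gc encodes the vitamin D-binding protein, a member of the albumin gene family, and lies on the same chromosome at chr5:89417522-89457898 on the minus strand. It showed the opposite division between exons and introns. Gc held 113 clusters, more than any other of the 39 genes, with 4356 counts (4228 to 4487), and 96 of them were intronic. All 13 exons held a cluster, as in Alb, and so did 9 of 12 introns. Intron 1 held 40 clusters and 1518 counts, intron 11 held 20 clusters and 673 counts, and intron 12 held 14 clusters and 619 counts. The other introns with a cluster had between 10 and 105 counts, and introns 5, 6 and 9 had none. Intron 10, at 8781 nt the second longest, had 4 clusters and 96 counts, 10.9 counts per kb against 137 in intron 1, 172 in intron 11 and 142 in intron 12. The highest Gc cluster was intronic, with 271 counts in intron 12 (chr5:89419748-89419789), 2059 nt before exon 13. The nearest annotated exon upstream of it, 2095 nt away, was the last exon of another transcript, Gc-202 (chr5:89421885-89421928). The highest exonic one had 181 counts, in the 3′ UTR of exon 13. Per length the exons were still higher, at 584 counts per kb against 85.1 in the introns, 6.86 times as much.

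**Figure D4:**
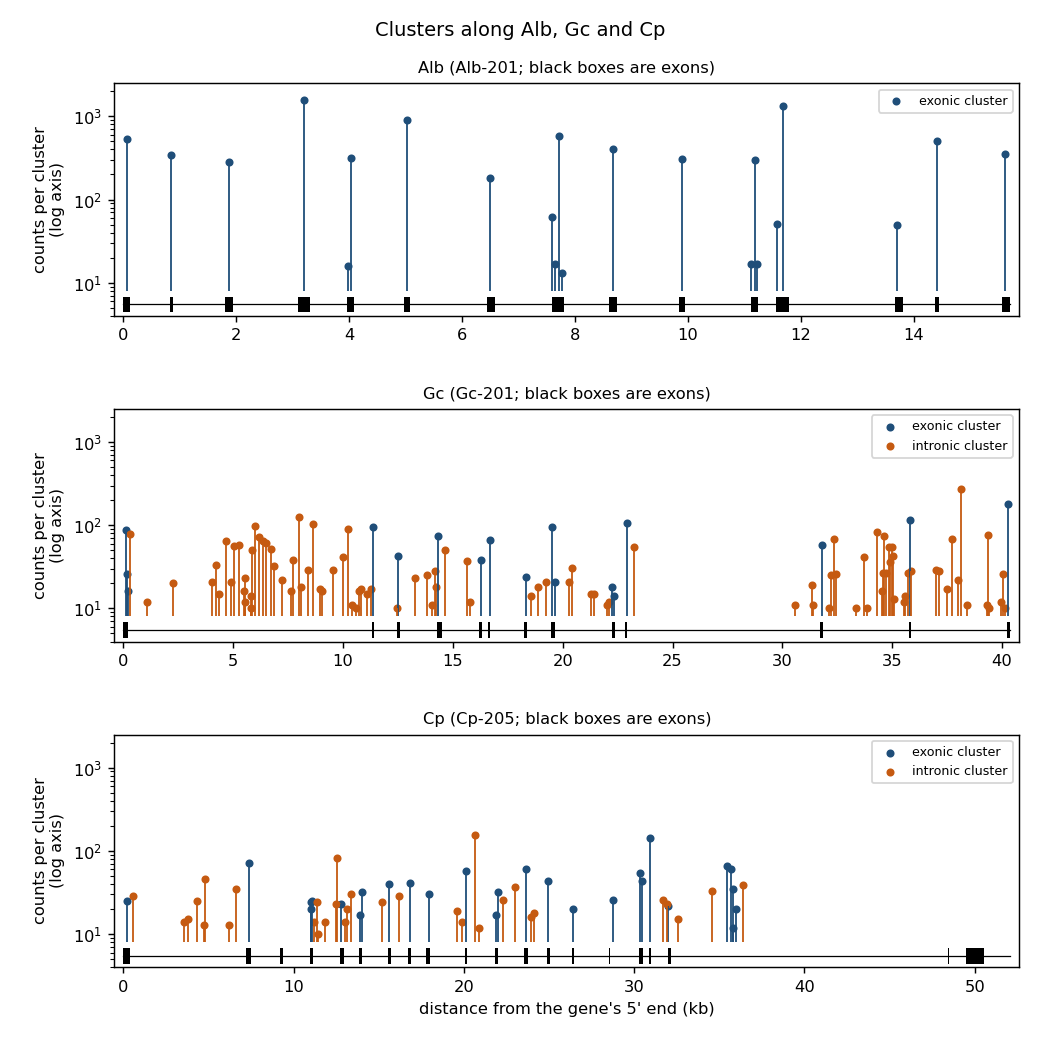
Counts per cluster (log axis) against the distance of the cluster from the gene's 5′ end (kb) in Alb, Gc and Cp; blue stems are exonic and orange stems intronic clusters, and black boxes are the exons of the transcript with the longest coding sequence. Alb has 22 exonic and no intronic cluster, Gc has 96 intronic clusters with 40 of them in intron 1, and in Cp the blue stems right of exon 18, outside the boxes, are the 5 clusters of the alternative last exon of Cp-202.

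Intronic clusters of Gc lay deep in the introns. Their median distance to the nearest exon was 984.5 nt, against 375 nt for the 157 intronic clusters of the other genes, and 21 of 96 (21.9%) against 68 of 157 (43.3%) lay within 300 nt of an exon. Of the 96, 64 were nearer to the exon downstream of them than to the one upstream. The counterpart was 71 of 157 in the other genes, and 135 of 253 over all 39 genes with Gc included. The Gc clusters were also narrow, with a median width of 8 nt in introns against 24 nt in introns of other protein-coding genes. Outside Gc, the intronic clusters of the inhibitors were closest to exons, with a median of 184.5 nt over 28 clusters. A midpoint in an intron does not place the whole cluster there: 11 of the 253 intronic clusters touched an exon.

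Of the other carriers, Cp encodes ceruloplasmin, the copper-carrying ferroxidase of plasma, and held 59 clusters with 1970 counts (1884 to 2059) on chr3:19957054-20009145, plus strand. Here 27 clusters with 1063 counts were exonic and 32 with 907 counts intronic. Its highest cluster, with 154 counts, lay in intron 10, 356 nt downstream of exon 10 (chr3:19977603-19977776), followed by 142 counts in exon 17. Trf, encoding the iron carrier transferrin, had 17 exonic clusters with 812 counts and 17 intronic ones with 407. All 34 also lie in an overlapping annotated gene on that strand, Gm20425, and cannot be assigned to either. Ahsg, encoding fetuin-A, an inhibitor of calcification, had 27 clusters and 1074 counts. Its highest cluster, 220 counts, began 17 nt downstream of exon 4 (chr16:22895375-22895429), and the highest exonic one had 106 counts in exon 7. Rbp4, the retinol carrier, had 372 of its 549 counts in introns, led by clusters of 74, 59 and 57 counts in intron 4. Hpx, encoding the haem-binding hemopexin, had 315 of 415 counts in exons. Ttr, the thyroxine carrier transthyretin, had 5 clusters between 21 and 54 counts, and Hp, the haemoglobin-binding haptoglobin, had 5 between 13 and 26, all exonic.

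In coagulation and fibrinolysis Kng1, encoding kininogen, the precursor of bradykinin, was highest with 15 clusters and 415 counts (376 to 457) on chr16:23057865-23082078, plus strand. Its 8 intronic clusters, between 11 and 52 counts and 229 together, all lay in intron 3, and none of its other introns held one. The exonic clusters had 17, 18, 56, 23, 18 and 44 counts in exons 1, 2, 4, 5, 6 and 10, and 10 counts in the last exon of the shorter form. F2, encoding prothrombin, had 14 clusters and 299 counts (266 to 335) on chr2:91625320-91636414, minus strand, with 49 counts in exon 14 and 41 in exon 1 as its highest. Fgb, the fibrinogen beta chain, had 7 exonic clusters of 12 to 30 counts, 139 in all (117 to 164). The other fibrinogen chains had fewer, with 62 counts for Fgg and 61 for Fga, also exonic only. The remaining genes with a cluster each had at most 2. Proc (protein C, an anticoagulant protease) had 55 counts, Vtn (vitronectin, an adhesive glycoprotein) 51, F13b (the carrier subunit of factor XIII) 29 and Plg (plasminogen, the precursor of plasmin) 18.

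In complement C3, the central component of all pathways, had 26 clusters and 656 counts (607 to 708) on chr17:57203970-57228136, minus strand. Its coding sequence held 19 clusters in 19 of 41 exons with 559 counts, led by 70 counts in exon 18 and 63 in exon 37. Its 7 intronic clusters had 10 to 23 counts. Masp1, encoding a protease of the lectin pathway, had 33 clusters and 594 counts (547 to 644) on chr16:23449417-23520815, minus strand, none above 55 counts. Of these, 15 were in a 3′ UTR and 15 in introns. Masp2 had 5 clusters of 16 to 24 counts and 91 in all (73.3 to 112), 1 in intron 3 and 4 in intron 8. Cfb had 62 counts in 3 clusters that also lie in the overlapping gene Gm20547. C5 and C9, components of the membrane attack complex, had 33 and 25 counts in 2 clusters each.

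Among the protease inhibitors Itih3, a heavy chain of the inter-alpha-trypsin inhibitors that bind hyaluronan, had 14 clusters and 522 counts (478 to 569) on chr14:30908572-30923760, minus strand. A single intronic cluster of 140 counts, in intron 16 (chr14:30913007-30913068), 92 nt from one exon and 95 nt from the next, exceeded its highest exonic cluster of 47 counts. Ambp, which encodes both alpha-1-microglobulin and bikunin, the light chain of these inhibitors, had 11 clusters and 257 counts (227 to 290), highest in exon 9 with 51. Itih2 had 13 clusters and 224 counts (196 to 255), of which 9 with 146 counts were intronic, none above 26. Itih4 had 136 counts and Itih1 had 41. In Serpina3k, of the antichymotrypsin family, 6 exonic clusters had 193 counts, and all also lie in the span of Serpina3m. Of the 136 counts in the span of Serpina1b, an alpha-1-antitrypsin, 86 lay in exons of Serpina1d and 50 in its own. The 3 clusters with these 86 counts are inside an intron of Serpina1b and stand among the 253 intronic clusters. Mouse alpha-1-antitrypsin, antichymotrypsin and kininogen genes have near-identical copies, and with uniquely mapped reads their counts, and the absence of Serpina1a, are uncertain. Serpinf2 (alpha-2-antiplasmin) had 80 counts in 3 exonic clusters and Serpinc1 (antithrombin) 53 in 4 clusters.

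Of the 39 genes, 9 have annotated coding transcripts that end in separate last exons, and not every end held a cluster. The ends were examined after the values were seen. In Cp, 5 clusters of 12 to 66 counts, 194 in all, lay in the 630 nt last exon of Cp-202 (chr3:19992509-19993138), and 1 of 26 counts in that of Cp-215, a transcript of 3 exons. The last exons of Cp-205 (1060 nt) and Cp-201 (606 nt) held none. Alternative 3′ ends of this gene are known to give a secreted and a membrane-anchored ceruloplasmin. In Masp1, which is known to give several proteins by alternative 3′ ends, the 3156 nt last exon of the 16-exon Masp1-201 held all 15 UTR clusters (chr16:23449417-23452572), with 10 to 55 counts each and 295 in all. The last exons of Masp1-203 (2368 nt) and Masp1-204 (832 nt) held none. In Fga a cluster of 16 counts lay in the part of the last exon that belongs to Fga-201 alone and none in the last exon of Fga-202, while its other cluster, of 45 counts, lay in a stretch that both transcripts share. In Kng1 the cluster of 44 counts in the last exon of Kng1-201 also lies in an exon of Kng1-202, whose own last exon had 10 counts. In Fgg the last exons of Fgg-201 and Fgg-202 had 23 and 13.

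The motif was next counted over all 39 genes. Sequence was read from annotated transcripts and so covers exons only in the main. In 206 windows around exonic clusters, taken along the spliced transcript with the longest coding sequence, 36 held GCATG, 17.5% (12.9 to 23.2%). Over all positions of the same class in the same transcripts the share was 14.7%, inside that interval. In other protein-coding genes 16.9% (16.4 to 17.5%) of 18871 windows held it, against 13.1% of positions. By group the share was 18.4% (12.4 to 26.5%) in carriers against 16.5% of positions, 21.4% (10.2 to 39.5%) against 16.9% in coagulation and fibrinolysis, 8.0% (2.22 to 24.97%) against 5.81% in complement, and 17.9% (8.98 to 32.7%) against 13.3% in the inhibitors. All 4 intervals include the share of positions. The 206 windows stand for 234 exonic clusters, since a cluster outside the searched transcript has no such window. In complement 25 windows stand for 41 exonic clusters, and those left out are all in Masp1. Its 15 UTR clusters lie in Masp1-201, while Masp1-203 was searched. Without Alb 24 of 184 windows held it, 13.04% (8.92 to 18.7%) against 10.6%. By counts rather than windows, 47.6% of the counts in windows of all 39 genes were in windows with GCATG, and 14.4% without Alb, against 25.4% in other protein-coding genes. No share of positions was weighted in this way. For the wide windows of the Alb clusters of 1558 and 1322 counts, the share of positions was already 88.5% and 84.5%.

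**Figure D5:**
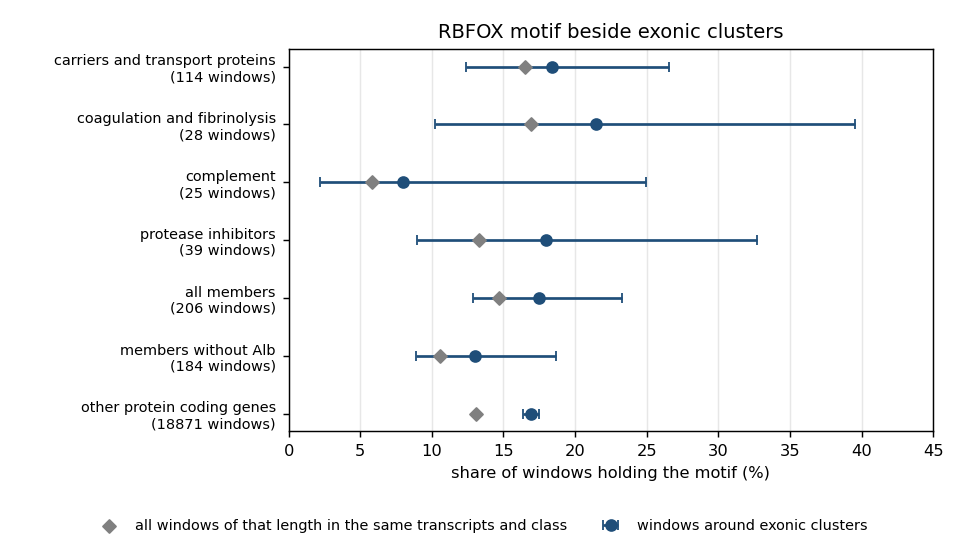
Share of windows (%) around exonic clusters that hold the RBFOX motif (circles, with Wilson 95% intervals) and share of all windows of that length in the same transcripts and class (diamonds), by group, for all 39 genes, without Alb, and for other protein-coding genes. The 39 genes stand at 17.5% against 14.7%, and the diamond lies inside the interval in every row except other protein-coding genes, at 16.9% against 13.1%.

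The reverse complement CATGC, which overlaps GCATG in the letters CATG and within GCATGC, was found in 41 of the 206 windows, 19.9% (15.02 to 25.9%), and in 12.7% of windows of other genes. It has the same length as GCATG but a different base composition, so it is not a control matched for composition. The longer TGCATG was in 12 windows (5.83%, 3.36 to 9.90%) against 6.96% in other genes, and the weaker RBFOX motif GCACG was likewise in 12 (5.83%) against 4.93%. With unspliced genome windows, which only 88 clusters had covered wholly by annotated exons, 12 held GCATG, 13.6% (7.98 to 22.3%), against 20.3% of windows in other protein-coding genes. The share over all positions of the same class in the same genes also differed, at 9.42% in the 39 genes and 13.5% in other genes. CATGC was in 13.6% of the 88 windows, the same share as GCATG, against 13.4% in other genes. TGCATG was in 1.14% of these windows against 10.4% in other genes, and GCACG in 3.41% against 4.16%. Only 12 of these 88 were around intronic clusters and none of the 12 held GCATG, with an upper Wilson bound of 24.2%. In other genes 25.9% of 3636 such windows did. The share of positions for these intronic windows was 4.77% in the 39 genes and 15.2% in other genes. None of the intronic windows of Gc had sequence, so its 96 intronic clusters were not scored.

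Outside Alb the motif was found beside clusters of 13 genes. Examples from each group are shown with GCATG in capitals, 5′ to 3′ on the strand of the gene, on GRCm38. Some sites lie inside the cluster named and others only within 50 nt of it along the spliced transcript. The site in exon 6 of Itih3 is separated in the gene by intron 5 from its cluster, which itself extends into that intron.
Cp exons 16 and 17, chr3:19987559-19987575 joined to chr3:19987933-19987945, plus strand, beside clusters of 142 and 44 counts: aagcaataaaatGCATGctattaatgggaa
Cp exon 12, chr3:19980624-19980653, plus strand, inside a cluster of 61 counts: actacacaggtgGCATGaagcaaaaataca
Gc exons 7 and 8, chr5:89439533-89439558 joined to chr5:89438445-89438448, minus strand, beside clusters of 94 and 24 counts: cctcagaggattGCATGgccagtgagctgc
Kng1 exon 4, chr16:23067729-23067758, plus strand, inside a cluster of 56 counts: tattggttgtgtGCATGccatatcgacaga
F2 exon 14, chr2:91625470-91625499, minus strand, inside a cluster of 49 counts: cggcttctacacGCATGtgttccgtctgaa
C3 exon 24, chr17:57215816-57215845, minus strand, inside a cluster of 37 counts: agaacatgattgGCATGacaccaacagtca
Masp1 exon 8, chr16:23483408-23483437, minus strand, inside a cluster of 28 counts: ctgaaggacggtGCATGgagtaacaagatc
Itih3 exon 6, chr14:30920725-30920754, minus strand, downstream of a cluster of 47 counts in exon 5: cacagggcattaGCATGctagatgctgaag
Itih3 exon 22, 3′ UTR, chr14:30908662-30908691, minus strand, 12 nt before a cluster of 43 counts: ttgttctgagtaGCATGtcagctgctgatg
The site in Kng1 is 1 of 7 in Kng1-201 (3.10 per kb, the density nearest to that of Alb), of which 2 lay within 50 nt of a cluster. In Masp1, 4 further windows in the last exon of Masp1-201 held GCATG, around clusters of 21, 15, 12 and 11 counts. The other windows with the motif were around clusters of 17 counts in exon 6 and 17 in exon 11 of Cp, 44 in exon 1 of Hpx, 21 in exon 13 of Trf, 18 in exon 2 of Kng1, 41 and 11 in exons 1 and 7 of F2, and 19 in the 3′ UTR of Fgb. Among the inhibitors they were around 21 counts in exon 10 of Itih3, 22 and 13 in exons 15 and 14 of Itih2, 15 in exon 13 of Itih4 and 13 in exon 3 of Serpina1b. The transcripts of Ahsg, Rbp4, Hp, Fga and F13b that were searched hold no GCATG, although Ahsg and Rbp4 had 528 and 177 exonic counts. Of the 528 in Ahsg, 33 lay in an exon outside the searched transcript.

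A list of 52 other plasma protein genes, taken from textbook membership of the same systems, gave 31 with a cluster, 183 clusters and 4763 counts, of which 43.2% of clusters were intronic. The highest sums were 511 counts in Serpina3n (an antichymotrypsin), 474 in F12 (coagulation factor XII) and 428 in C4b (complement component 4). Alb, Gc, Cp, Trf, Ahsg, C3, Masp1, Rbp4 and Itih3 all lay above these. Of the clusters of that list, 6 in Serpina3m and 3 in Serpina1d are the same as those counted above for Serpina3k and Serpina1b.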

How the data were processed

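RBFOX2 eiCLIP was carried out in primary mouse hepatocytes, with 3 libraries in 1 group. Per the submitters' processing notes the authors used CASAVA 1.8.4, cutadapt and STAR 2.4.2a on GRCm38. Per the study's methods, uniquely mapped reads were kept, PCR duplicates were removed by position and random barcode, and cDNA starts were clustered with Paraclu. That the 3 libraries were summed and ribosomal RNA was removed comes from how the authors named the list. The deposited list holds 87021 clusters with whole-number counts (taken as cDNA starts per cluster, which no header states; 10 to 186971, median 17), not normalized by the authors, at most 200 nt wide. PCR duplicates had been removed, but depth per library is unknown and intervals cover counting error only. The annotation used here, GENCODE M21, is later than the study's.

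All 39 members matched the annotation. Members and lists were chosen with earlier results of these data known. A cluster was classed by its midpoint, coding sequence first, then 3′ UTR before 5′ UTR, then any other exon and intron last, with exons of retained-intron transcripts as intron. Exons were numbered on the transcript with the longest coding sequence. Shares carry Wilson and sums exact Poisson 95% intervals (Python 3.11.15, scipy 1.17.1, pandas 2.3.3). No test was run, since the libraries were pooled. GCATG was searched in the cluster with 50 nt on each side, on the gene's strand, in annotated transcripts only. Windows along the spliced transcript were added after seeing how few genome windows were covered. Class and motif calls were tested on simulated data. Described in full were the 3 members with the highest sums in each group, the 10 highest clusters and clusters with GCATG. Genes without a cluster were named, and of the other plasma protein genes the 3 with the highest sums. Alternatives covered the count threshold, assignment by overlap, merging within 200 nt, clusters shared with other genes, single genes left out, exon definitions, motifs and windows.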

Additional observations from a re-analysis of the deposited data

Results flagged for a closer look

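Inside the spans of the 39 genes, 7 clusters with 151 counts together lay on the strand opposite to the gene, outside the rule that chose the clusters above. Gc held 4 of them, with 10, 15, 29 and 22 counts, against 113 on its own strand. C5 held 1 with 17 counts, Itih2 1 with 19 and Serpinc1 1 with 39, and the last, in an intron of the antithrombin gene, exceeded all 4 clusters on that gene's own strand (10, 17, 15 and 11 counts). All 7 were in introns, and no annotated gene lies on that strand there. The file lists clusters from 10 counts upward, and no control library was analysed here.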

How the results depend on the processing

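The libraries were pooled before clustering, so no library could be left out. No paired analysis was possible because the 3 libraries form 1 group and 1 pooled list. The intronic share of 52.0% fell to 46.7% among clusters at or above the median count, to 37.3% among clusters in the top 10% of counts (39 or more), to 32.6% when clusters were weighted by count and to 42.0% without Gc, a choice added after seeing the data. It stayed within its interval under the other 8 alternatives. The 487 clusters became 323 at or above the median count and 118 in the top 10%. In the top 10%, genes with a cluster went from 33 to 18, opposite-strand clusters from 7 to 1 and other plasma protein genes with a cluster from 31 to 16. The share of genome windows with the motif was 13.6% for GCATG, 1.14% for TGCATG and 3.41% for GCACG. Under the other 12 alternatives on genome windows the share was 10.3% to 15.4%, and with spliced windows 17.5%. The reverse complement CATGC is 1 of these 12 and had the same 13.6% as GCATG.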
